A study of Homo sapiens with 6 samples.

Results

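The PAX genes were examined in 4 human cell lines of atypical teratoid rhabdoid tumor (AT/RT), an embryonal tumor of the central nervous system. The 9 genes whose symbols run from PAX1 to PAX9 were taken from the deposited transcript values, and TPM (a transcript level scaled by transcript length and library depth) was summed over the transcripts of each gene identifier, which gave 9 of 36532 genes. The lines, named CHLA 02, 04, 05 and 06, were obtained from ATCC and grown without further treatment in DMEM:F12 medium with EGF, basic FGF and B-27 supplement. Total RNA was sequenced as stranded paired-end libraries. A single library was made of CHLA 02 and of CHLA 05, while 2 technical replicates were made of CHLA 04 and of CHLA 06. Each line was thus 1 biological sample, no test between lines could be made, and the spread between cultures was not measured. Loss of SMARCB1, a subunit of the SWI/SNF chromatin remodeler, defines AT/RT, the lines are described as lacking it, and no other kind of cell was sequenced.

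PAX genes encode transcription factors that bind DNA through a paired domain and act in the patterning of embryonic organs. They fall into 4 subgroups that differ in whether a homeodomain and an octapeptide motif accompany the paired domain. PAX4 and PAX6 act in the endocrine pancreas, and PAX6 also in the eye and forebrain, where it marks dividing radial glia. PAX2, PAX5 and PAX8 act in the midbrain-hindbrain boundary, with further roles of PAX2 in kidney and optic stalk, of PAX5 in B cells and of PAX8 in kidney and thyroid. PAX3 and PAX7 belong to the dorsal neural tube, neural crest and muscle precursors, and PAX1 and PAX9 to the sclerotome and pharyngeal pouches.

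The 6 libraries held 10265899 to 20520229 reads on transcripts, recovered from the steps in the TPM values. For genes far apart between CHLA 04 and CHLA 06, the library of CHLA 02 mostly lay between these lines. Of 11868 genes at 5 TPM or more in CHLA 02, 0 were below 1 TPM in every other line, against 8 of 11615 such genes in CHLA 04, 137 of 11807 in CHLA 05 and 9 of 11308 in CHLA 06. At 20 TPM or more, such genes numbered 38 in CHLA 05 and 0 in each other line. These counts take CHLA 02 as one of the other lines, so they depend on it. With CHLA 02 left out, CHLA 06 had the most genes at 20 TPM or more and below 1 TPM in both other lines. Such genes numbered 130 in CHLA 06, 39 in CHLA 05 and 16 in CHLA 04. Among 214 genes at 20 TPM or more in CHLA 06 and below 1 TPM in CHLA 04, 0 were below 1 TPM in CHLA 02, where the median ratio to CHLA 06 was 0.556 (quartiles 0.403 and 0.734). Among 263 genes at 20 TPM or more in CHLA 04 and below 1 TPM in CHLA 06, 0 were below 1 TPM in CHLA 02, where the median ratio to CHLA 04 was 0.374 (quartiles 0.259 and 0.548). In CHLA 02, 200 of the 214 genes and 255 of the 263 lay between CHLA 04 and CHLA 06. Whether the CHLA 02 library holds RNA of a single line, and whether it matches its label, was not tested. The finding of both PAX2 and PAX6 in the library labelled CHLA 02 carries this limit. The detection of PAX genes and their 4-fold range are therefore also given without this library, while the nearest profiles include it. SMARCB1 transcripts were measured at 13.5, 24.2, 16.3 and 16.7 TPM in CHLA 02, 04, 05 and 06, so the defining loss was not visible as absent RNA. These are sums over all SMARCB1 transcripts and do not show whether part of the gene, or the protein, was lost.

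PAX2 and PAX6 were the PAX genes that reached 1 TPM, the level taken here as detected. CHLA 04 and CHLA 05 reached it for PAX6 and not for PAX2, CHLA 06 for PAX2 and not for PAX6, and the library labelled CHLA 02 for both. PAX genes at 1 TPM or more numbered 2 of 9 in CHLA 02 and 1 of 9 in each of the other lines. Over all 36532 genes, the shares that reached 1 TPM were 39.7%, 38.7%, 39.2% and 37.3% in CHLA 02, 04, 05 and 06. Without CHLA 02, no line had both PAX2 and PAX6 at 1 TPM. Of the summed PAX TPM, PAX6 made up 97.2% or more in the libraries of CHLA 04 and CHLA 05, and PAX2 96.8% or more in those of CHLA 06. In CHLA 02 the shares were 63.5% for PAX2 and 36.2% for PAX6. The sum over the 9 genes lay between 27.0 and 49.1 TPM.

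**Figure D1:**
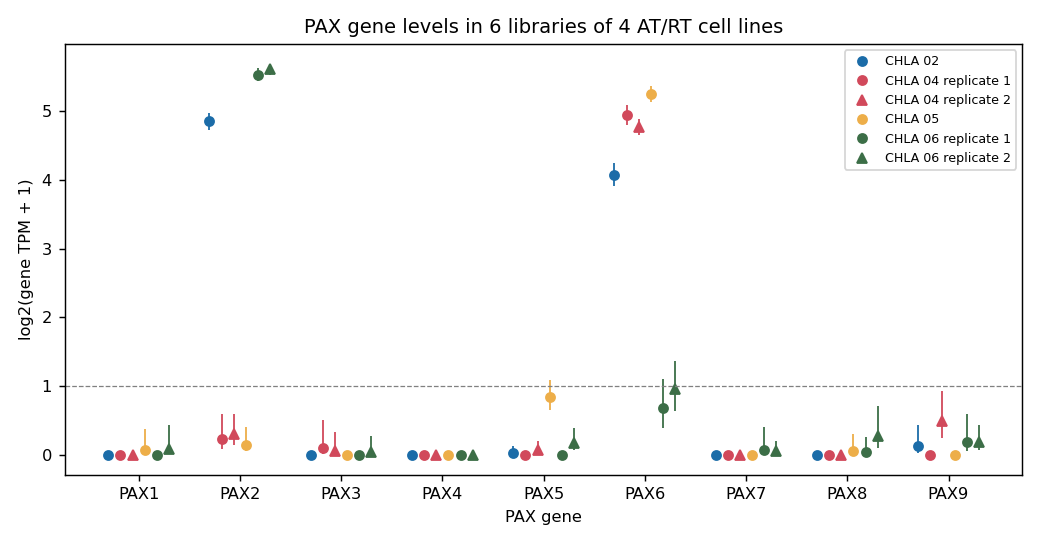
Level of each PAX gene, as log2(gene TPM + 1) on the vertical axis, with 1 symbol per library (circles for single libraries and replicate 1, triangles for replicate 2) and 95% Wilson intervals for counting error as vertical bars. The dashed line is 1 TPM. PAX2 is above it in CHLA 02 and CHLA 06, PAX6 in CHLA 02, CHLA 04 and CHLA 05, and the other 7 genes stay below it in all 6 libraries.

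PAX6 (ENSG00000007372, GRCh38 chr11:31784792-31817961, minus strand) encodes the factor with both a paired domain and a full homeodomain that is best known from eye formation. It was at 15.8 TPM in CHLA 02, 29.7 and 26.2 TPM in the replicates of CHLA 04, 36.9 TPM in CHLA 05, and 0.604 and 0.937 TPM in the replicates of CHLA 06. Both CHLA 06 libraries lay below all other libraries, and the other 4 libraries did not reach into their range. These values rest on 263, 341, 513, 611, 9 and 14 reads. The 95% Wilson intervals of the CHLA 06 replicates, 0.318 to 1.15 TPM and 0.558 to 1.57 TPM, held the threshold of 1 TPM, and quantile normalization put their mean at 1.03 TPM. PAX6 was thus close to the middle of the expressed genes in CHLA 02 (percentile 52.1 of genes above 0) and higher in CHLA 05 (percentile 68.4).

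Ordered by level, the PAX6 means were 36.9 TPM in CHLA 05, 28.0 ± 2.47 TPM (SD, n = 2 technical replicates) in CHLA 04, 15.8 TPM in CHLA 02 and 0.770 ± 0.236 TPM (SD, n = 2 technical replicates) in CHLA 06. The 95% Wilson interval of CHLA 05, 34.1 to 39.9 TPM, did not overlap those of the CHLA 04 replicates, which ran from 24.1 to 33.0 TPM. The interval of CHLA 02 was 14.0 to 17.9 TPM, below CHLA 04 and above CHLA 06. These intervals cover counting error only. The replicates of CHLA 04 did not differ in PAX6 beyond counting error (exact two-sided binomial test of reads, p = 0.0961, adjusted p = 0.185 over all genes), and nor did those of CHLA 06 (exact binomial test, p = 0.532, adjusted p = 0.763).

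PAX6 differed by more than 4-fold between CHLA 06 and each of the other lines. On the log2(TPM + 1) scale it was higher by 3.25 in CHLA 02, by 4.03 in CHLA 04 and by 4.42 in CHLA 05. As ratios of TPM these differences were 20.5-fold, 36.3-fold and 47.9-fold. Among CHLA 02, CHLA 04 and CHLA 05 the differences were smaller, with CHLA 05 1.32-fold above CHLA 04 and 2.33-fold above CHLA 02.

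PAX2 (ENSG00000075891, GRCh38 chr10:100735603-100829941, plus strand) encodes a factor of the developing kidney, optic stalk and midbrain-hindbrain boundary, with a partial homeodomain. It was at 27.8 TPM in CHLA 02, 0.174 and 0.233 TPM in the replicates of CHLA 04, 0.113 TPM in CHLA 05, and 45.1 and 47.5 TPM in the replicates of CHLA 06. The 3 libraries of CHLA 02 and CHLA 06 did not overlap the 3 libraries of CHLA 04 and CHLA 05. The values rest on 492, 3, 6, 3, 887 and 1076 reads. In CHLA 06 PAX2 was at percentiles 75.6 and 77.7 of the genes above 0.

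Ordered by level, PAX2 was at 46.3 ± 1.76 TPM (SD, n = 2 technical replicates) in CHLA 06, 27.8 TPM in CHLA 02, 0.203 ± 0.0418 TPM (SD, n = 2 technical replicates) in CHLA 04 and 0.113 TPM in CHLA 05. The interval of CHLA 02, 25.4 to 30.3 TPM, lay below those of both CHLA 06 replicates (42.2 to 50.5 TPM). CHLA 04 and CHLA 05, with 9 and 3 reads, could not be ordered, since their intervals overlapped. The replicates of CHLA 06 had an unadjusted p of 0.0225 for PAX2 and an adjusted p of 0.0725 over all genes (exact two-sided binomial test), so they did not pass the threshold of 0.05.

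On the log2(TPM + 1) scale, the PAX2 value of CHLA 04 minus that of CHLA 06 was -5.30, and the value of CHLA 05 minus that of CHLA 06 was -5.41. CHLA 02 exceeded CHLA 04 by 4.58 and CHLA 05 by 4.69. CHLA 02 and CHLA 06 differed by less than 4-fold, with PAX2 1.67-fold higher in CHLA 06.

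Counted by line pair, the number of PAX genes past a 4-fold difference was 2 of 2 tested for CHLA 04 against CHLA 06. It was also 2 of 2 for CHLA 05 against CHLA 06. Of all genes tested, 15.1% and 14% passed for these pairs. The number was 1 of 2 for CHLA 02 against CHLA 04 (PAX2, with 6.06% of all genes). It was 1 of 2 for CHLA 02 against CHLA 05 (PAX2, with 9.2%), and 1 of 2 for CHLA 02 against CHLA 06 (PAX6, with 4.53%). For CHLA 04 against CHLA 05 it was 0 of 1 PAX gene tested, with 7.43% of all genes. Both PAX2 and PAX6 had a 4-fold range over the 4 lines, as did 20.9% of the 16035 genes at 1 TPM or more in a line. They also had a 4-fold range without CHLA 02. With the most abundant transcript alone in place of the gene sum, 0 PAX genes passed for CHLA 02 against CHLA 06.

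The patterns themselves were counted over all genes after the PAX values had been seen, so the counts are descriptions only. CHLA 06 was below each other line by 4-fold in 2.71% of the 16035 genes, PAX6 among them. CHLA 02 and CHLA 06 were both above CHLA 04 and CHLA 05 by 4-fold in 2.68%, PAX2 among them. In CHLA 02, the ratio of PAX2 to CHLA 06 was 0.600 and the ratio of PAX6 to CHLA 04 was 0.566. The first lies within the quartiles of the 214 genes described above, and the second lies above the upper quartile of the 263 genes.

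The technical replicates themselves set a limit to smaller differences. By the exact binomial test at an adjusted p of 0.05, 43.6% of all genes tested differed between the CHLA 04 replicates and 29.3% between the CHLA 06 replicates. None of the 5 PAX genes with reads in CHLA 04 and none of the 8 in CHLA 06 passed, although 6 of the 8 had 6 or fewer reads in both libraries together.

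The transcripts of PAX6 and PAX2 differ in their first exons and in cassette exons, and sequences of a start of each gene and of the cassette exons are shown here. The transcript values below were grouped by positions and not by these sequences. The first pair are RefSeq windows of GRCh38.p14, from 250 bases before to 50 bases after an annotated start, with CG dinucleotides in capitals. The PAX6 window, chr11:31817912-31818211 on the minus strand, holds the upstream start, whose position equals the most 5′ transcript end in the files. The PAX2 window is chr10:100745332-100745631 on the plus strand, just before the 5′ ends of 7 of the 9 PAX2 transcripts.
PAX6 upstream start: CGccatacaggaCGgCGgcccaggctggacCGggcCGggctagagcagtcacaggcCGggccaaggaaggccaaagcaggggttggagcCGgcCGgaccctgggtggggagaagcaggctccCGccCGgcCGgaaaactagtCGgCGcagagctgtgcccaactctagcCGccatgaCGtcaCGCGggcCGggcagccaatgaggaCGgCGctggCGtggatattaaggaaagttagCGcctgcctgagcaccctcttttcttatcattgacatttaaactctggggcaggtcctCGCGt
PAX2 main start: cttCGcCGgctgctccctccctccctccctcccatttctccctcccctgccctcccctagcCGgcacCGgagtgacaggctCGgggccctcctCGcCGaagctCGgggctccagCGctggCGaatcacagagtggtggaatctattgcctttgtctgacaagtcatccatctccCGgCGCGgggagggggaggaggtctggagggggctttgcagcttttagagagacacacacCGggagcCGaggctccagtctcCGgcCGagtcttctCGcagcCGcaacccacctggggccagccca

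The PAX6 window held 24 CG and the PAX2 window 19. Over 35116 RefSeq windows of the same length the median was 14 CG, and 66.1% and 57.1% of windows had fewer than these. Windows were matched for 8 of the 9 PAX genes, 19 in all. The other PAX6 windows held 5 to 32 CG, and the other PAX2 window held 14. Those of PAX4, the gene with 0 reads in all libraries, held 0 and 2 CG, and that of PAX5 held 30. Those of PAX3 and PAX7, with 3 reads each in all, held 21 each. The window of PAX8 held 13 and those of PAX9 held 19 and 12. The letters TATAAA, searched on both strands, were in 11.5% of all windows and in the PAX5 window alone among the 19.

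The PAX6 cassette exon of 42 bases (chr11:31801871-31801912, minus strand) adds 14 codons within the paired domain and is known as exon 5a, which alters the DNA sequences the protein binds. The PAX2 cassette exons have 69 bases (chr10:100786943-100787011, plus strand, 23 codons) and 83 bases (chr10:100824902-100824984, plus strand, 27 codons and 2 bases, which shifts the reading frame). All 3 exons were read from the GRCh38 sequence and are flanked by AG before and GT after.
PAX6 42-base exon: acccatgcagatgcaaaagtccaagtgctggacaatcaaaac
PAX2 69-base exon: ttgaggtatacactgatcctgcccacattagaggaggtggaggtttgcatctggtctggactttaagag
PAX2 83-base exon: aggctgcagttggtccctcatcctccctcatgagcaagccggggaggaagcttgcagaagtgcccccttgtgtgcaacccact

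PAX6 had 31 annotated transcripts, of which 29 had reads in at least 1 library. The highest means over the 6 libraries belonged to ENST00000533333 (6173 bases), with 2.23 TPM in CHLA 02, 6.63 and 4.91 TPM in CHLA 04 and 5.66 TPM in CHLA 05. ENST00000379109 (2157 bases) followed with 2.08 TPM in CHLA 02, 6.36 and 4.03 TPM in CHLA 04 and 5.19 TPM in CHLA 05. Both start at the middle group of PAX6 starts. No single transcript made up most of PAX6 in these 4 libraries, and the most abundant one held 14.1% of PAX6 TPM in CHLA 02 and 22.3% in CHLA 04 replicate 1.

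**Figure D2:**
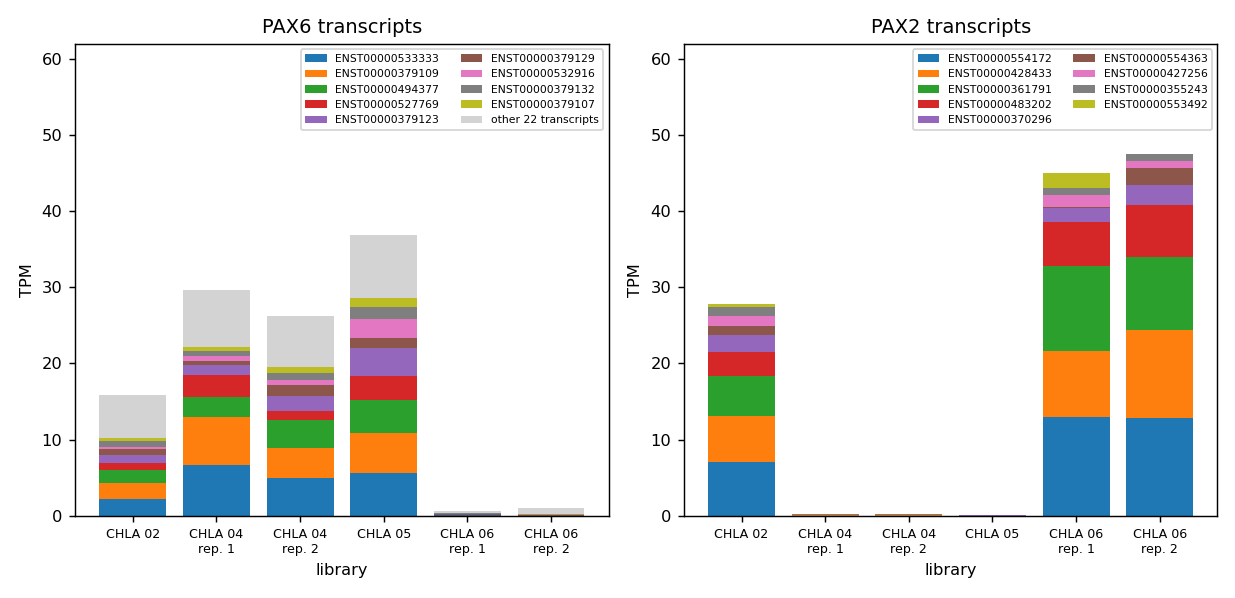
TPM of PAX6 (left) and PAX2 (right) in each library as stacked bars, split by Ensembl transcript, with the 9 highest of PAX6 named and the rest in grey. PAX6 bars reach 15.8 to 36.9 TPM in CHLA 02, CHLA 04 and CHLA 05 and under 1 TPM in CHLA 06, while PAX2 bars reach 27.8 TPM in CHLA 02 and 45.1 and 47.5 TPM in CHLA 06.

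Transcripts of PAX6 were grouped by the position of their 5′ ends. The 12 transcripts of the middle starts (5′ ends from 31810305 to 31812926) held 50.5% of PAX6 TPM in CHLA 02, 65.5% and 61.0% in CHLA 04, and 57.4% in CHLA 05. The 6 transcripts of the upstream start (31817874 to 31817961) held 17.7% in CHLA 02, 6.46% and 10.2% in CHLA 04, and 11.3% in CHLA 05. The order of the groups was the same in these 4 libraries, with the middle starts highest, and the upstream share was highest in CHLA 02. The remaining 13 transcripts, which begin further downstream, held 28.0% to 31.9%. CHLA 06 had too few PAX6 reads for shares, with 3, 3 and 3 reads for the groups in replicate 1 and 11, 2 and 1 in replicate 2.

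The 42-base exon separates 10 PAX6 transcripts that hold it from 10 that skip it. Those with the exon made up 41.0% of the TPM of these 20 in CHLA 02, from 69 reads with and 89 without. In CHLA 04 they made up 28.4% (43 and 112 reads) and 30.0% (106 and 186 reads), and in CHLA 05 26.6% (116 and 232 reads). The forms without the exon were thus the larger share in each of these libraries, and CHLA 02 had the highest share with it. Since transcripts share most of their exons, these shares depend on how the authors' program divided reads among them, and no junction reads were available here.

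**Figure D3:**
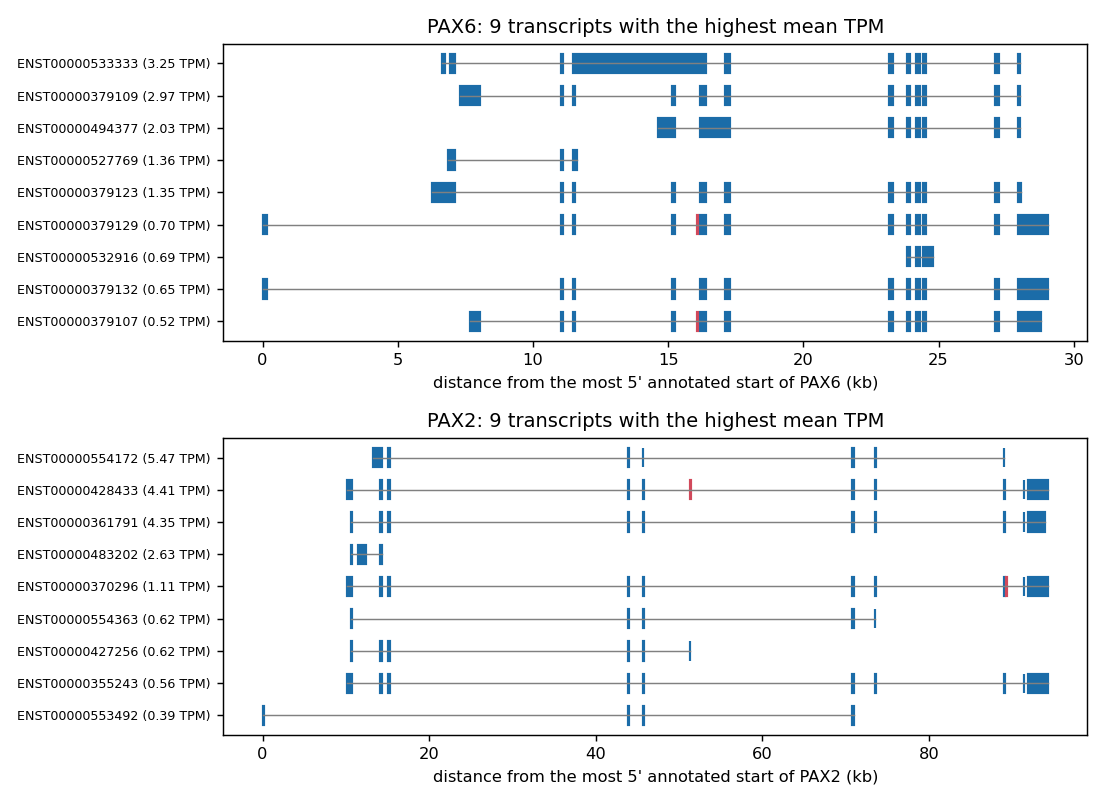
Exons (blocks) of the 9 PAX6 and 9 PAX2 transcripts with the highest mean TPM over the 6 libraries (given in parentheses), drawn to scale by distance in kb from the most 5′ annotated start of the gene, in the direction of transcription. Red blocks are the cassette exons of 42 bases in PAX6 and of 69 and 83 bases in PAX2. ENST00000533333 carries 1 long block over positions that are largely introns in the other PAX6 models shown, and 2 of the PAX6 transcripts shown begin at the upstream start.

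PAX2 had 9 annotated transcripts, all of them with reads. In the libraries where PAX2 was detected, ENST00000554172 was highest, at 6.99 TPM in CHLA 02 and 12.96 and 12.87 TPM in CHLA 06. ENST00000428433, which holds the 69-base exon, was at 6.09 TPM in CHLA 02 and 8.71 and 11.55 TPM in CHLA 06. ENST00000361791, which skips it, was at 5.24 TPM in CHLA 02 and 11.17 and 9.57 TPM in CHLA 06. The last pair changed order between the CHLA 06 replicates, so their order could not be settled.

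Transcripts from the main PAX2 start (5′ ends 100745711 to 100746264) made up 73.8% of PAX2 TPM in CHLA 02 and 66.7% and 72.9% in CHLA 06. ENST00000554172, whose 5′ end is further downstream at 100748850, held 25.2% in CHLA 02 and 28.8% and 27.1% in CHLA 06. The most upstream transcript had 1 read in CHLA 02, 8 reads in CHLA 06 replicate 1 and 0 in replicate 2. The main start held the largest share in all 3 of these libraries.

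The transcript with the 69-base exon made up 37.4% of the TPM of the 6 that can be compared in CHLA 02 (168 reads with and 210 without), and 35.1% (278 and 371 reads) and 42.8% (407 and 400 reads) in CHLA 06. The CHLA 02 value lay between the technical replicates of CHLA 06. The transcript with the 83-base exon made up 14.8% in CHLA 02 (60 and 312 reads), and 8.02% (58 and 582 reads) and 10.7% (94 and 702 reads) in CHLA 06. Here CHLA 02 lay above both replicates.

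The other 7 PAX genes were below 1 TPM in every library. PAX5 (ENSG00000196092, chr9:36833275-37034185, minus strand), the factor of B cell commitment, was the highest of them, at 0.802 TPM in CHLA 05 from 33 reads (95% Wilson interval 0.571 to 1.13 TPM). Elsewhere it was at 0.0174 TPM in CHLA 02, 0 and 0.0505 TPM in CHLA 04, and 0 and 0.135 TPM in CHLA 06, from 5 or fewer reads each. CHLA 05 was thus the highest library for PAX5, with an interval that held the 1 TPM threshold.

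PAX9 (chr14:36657568-36679715, plus strand), a factor of pharyngeal pouches and teeth, had 14 reads in all, with 0.0963 TPM in CHLA 02, 0 and 0.414 TPM in CHLA 04, 0 TPM in CHLA 05, and 0.142 and 0.139 TPM in CHLA 06. PAX8 (chr2:113215997-113278950, minus strand), a thyroid and kidney factor, had 5 reads, 1 in CHLA 05 and 1 and 3 in CHLA 06. PAX3 (chr2:222199888-222298996, minus strand) and PAX7 (chr1:18631006-18748866, plus strand), the factors of neural crest and muscle precursors, had 3 reads each. PAX1 (chr20:21705659-21718486, plus strand), of the sclerotome, had 2 reads. PAX4 (chr7:127610292-127615928, minus strand), of the endocrine pancreas, had 0 reads in all 6 libraries, where 3 reads, the upper limit that a count of 0 allows, would be worth 0.284 to 0.574 TPM. With so few reads, no order among libraries could be read for these genes.

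Genes on either side of PAX6 did not share its pattern. ELP4, a subunit of the Elongator complex, ends 794 bp from PAX6 and was at 21.1, 19.7, 27.2 and 20.0 TPM in CHLA 02, 04, 05 and 06. RCN1, a calcium-binding protein of the endoplasmic reticulum, overlaps the upstream part of PAX6 on the opposite strand and was at 240, 214, 330 and 192 TPM. Whether reads were counted by strand is not given in the sources used here, so reads of the overlap cannot be told apart between PAX6 and RCN1. RCN1 was at 201 and 183 TPM in the replicates of CHLA 06, where the upstream PAX6 start had 3 and 2 reads. The RCN1 level is a sum over the whole gene, which runs far beyond PAX6, and its part in the overlap was not tested.

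The neighbours of PAX2 were detected in all 4 lines. HIF1AN, the asparagine hydroxylase that acts on HIF, lies 175605 bp before it and was at 26.8, 40.1, 23.7 and 22.6 TPM in CHLA 02, 04, 05 and 06. SLF2, a partner of the SMC5/6 complex, lies 82628 bp after it and was at 59.9, 72.5, 83.05 and 53.9 TPM. Both lacked the large gap that PAX2 showed between CHLA 04 and CHLA 06. PAX9 is overlapped on the opposite strand by SLC25A21, at 4.83, 0.0708, 0.444 and 6.09 TPM, and PAX8 by PAX8-AS1, at 0.202, 0, 0.0596 and 0.488 TPM, so the few reads of PAX8 and PAX9 share this limit of strand.

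The genes most like PAX2 were found by Euclidean distance between log2(TPM + 1) profiles over the 6 libraries, each centred on its mean, among 13151 genes at 5 TPM or more in a line. The nearest was HTR7, a serotonin receptor, at a distance of 0.228, with 27.9, 0.0464, 0 and 45.3 TPM in CHLA 02, 04, 05 and 06. SERPINB2, a plasminogen activator inhibitor, followed at 0.390, then FAM83G at 0.394, SP5, a WNT target, at 0.449, and DBX1, a homeobox factor of the neural tube, at 0.526. These 5 were all at 18.7 TPM or more in CHLA 02 and at 33.2 TPM or more in CHLA 06. Being high in these lines is no separate result, since they were chosen for likeness to PAX2.

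The gene most like PAX6 was FREM2, an extracellular matrix protein, at a distance of 0.388, with 54.1, 99.3, 135 and 4.32 TPM in CHLA 02, 04, 05 and 06. FAM127C (0.436), the kinase NUAK2 (0.468), TMEM178A (0.507) and IGFBP4, which binds insulin-like growth factors (0.555), came next. Each of the 5 had its lowest line mean in CHLA 06, which follows from choosing them for likeness to PAX6. The points of each profile include technical replicates of 2 lines, so likeness over 6 libraries rests on 4 biological samples.

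Genes linked to PAX factors in development were described from 10 lists with 85 genes, of which 83 were found and 52 reached 1 TPM in a line. A 4-fold range over the lines was seen for 27 of the 52 (51.9%), beside 20.9% of all genes tested, and the median range on the log2(TPM + 1) scale was 2.01 for the lists and 1.02 for all genes tested. The lists were put together with results of these data known, so this is a description and not evidence about PAX function. CHLA 02, 04, 05 and 06 had 39, 42, 40 and 32 of the 83 genes at 1 TPM or more.

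**Figure D4:**
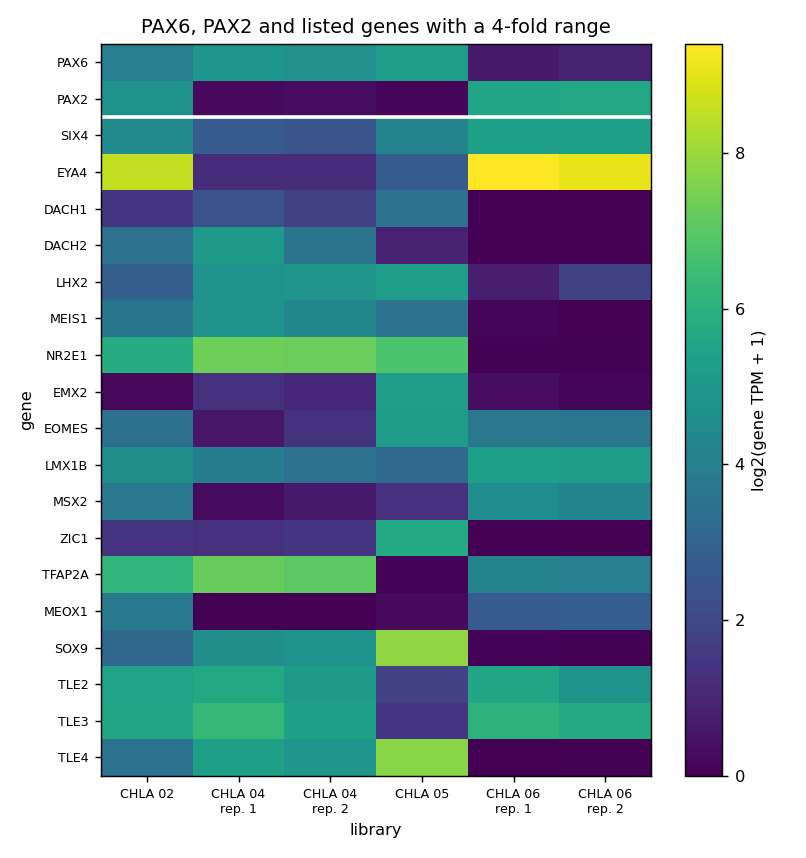
Heat map of log2(gene TPM + 1) in the 6 libraries (columns) for PAX6, PAX2 and 18 listed genes with at least 10 TPM in a line and a 4-fold range (rows), with the color scale at the right. CHLA 06 is dark for PAX6, NR2E1, MEIS1, SOX9 and TLE4, and bright for PAX2 and EYA4.

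Of the forebrain and eye field list, where PAX6 acts, 8 of the 9 genes at 1 TPM or more had a 4-fold range, and 7, 8, 9 and 3 of the 13 genes were at 1 TPM or more in CHLA 02, 04, 05 and 06. NR2E1, the nuclear receptor of neural stem cells, was at 56.1, 155, 107 and 0.0471 TPM in these lines. LHX2, an eye field and cortex factor, was at 6.28, 27.8, 36.7 and 1.68 TPM. MEIS1, a homeobox factor that acts upstream of PAX6 in the lens, was at 11.5, 23.3, 10.5 and 0.0523 TPM. These 3 genes were lowest in CHLA 06, as PAX6 was. EMX2 differed, with 37.6 TPM in CHLA 05 and 0.146, 1.31 and 0.161 TPM in the others, and EOMES was at 10.2, 1.04, 34.4 and 12.2 TPM.

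The EYA and DACH genes and their homeobox partners form a network with PAX factors in eye, ear and kidney, and 7 of the 9 at 1 TPM or more had a 4-fold range. The coactivator EYA4 was at 368, 1.28, 5.65 and 608 TPM in CHLA 02, 04, 05 and 06, and the homeobox factor SIX4 at 21.3, 5.01, 17.5 and 38.5 TPM. Both were highest in CHLA 06 and next in CHLA 02, as PAX2 was. The corepressors DACH1 (1.79, 3.31, 10.6 and 0.0122 TPM) and DACH2 (10.4, 22.2, 0.801 and 0 TPM) were lowest in CHLA 06.

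In the midbrain and hindbrain list, where PAX2, PAX5 and PAX8 act, 1 of the 4 genes at 1 TPM or more had a 4-fold range, LMX1B at 24.4, 12.6, 8.33 and 36.8 TPM in CHLA 02, 04, 05 and 06. In the kidney and thyroid list it was 1 of 6 and in the B lineage list 0 of 1, EBF1 being the B lineage gene that reached 1 TPM. In the neural crest, dorsal neural tube and muscle list it was 4 of 6, with TFAP2A at 71.1, 139, 0.0560 and 16.5 TPM, ZIC1 at 1.70, 1.63, 53.0 and 0.0112 TPM and MSX2 at 12.7, 0.396, 1.43 and 20.4 TPM. PAX3 and PAX7, by contrast, had 3 reads each over all lines.

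In the sclerotome list 2 of 3 genes had a 4-fold range. SOX9, also a factor of glia and cartilage, was at 7.71, 25.5, 228 and 0.0477 TPM, and MEOX1 at 12.97, 0, 0.185 and 5.74 TPM, in CHLA 02, 04, 05 and 06. In the endocrine pancreas list it was 1 of 2. All 12 cofactors were at 1 TPM or more in CHLA 02, CHLA 04 and CHLA 05 and 11 of them in CHLA 06, and 3 had a 4-fold range. The Groucho corepressors TLE2 (41.98, 41.8, 2.51 and 35.9 TPM) and TLE3 (45.9, 58.3, 1.80 and 58.9 TPM) were lowest in CHLA 05, and TLE4 (10.3, 34.3, 209 and 0.0210 TPM) was highest there and lowest in CHLA 06. Of 3 listed antisense RNAs, PAX8-AS1 was found and did not reach 1 TPM.

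Markers of cell types differed across the lines, and the members of a list did not all move alike. Values are given in the order CHLA 02, 04, 05 and 06. Of the 5 neural progenitor markers, FABP7 (756, 3169, 1400 and 0.995 TPM) and MSI1 (109, 272, 236 and 8.23 TPM) were lowest in CHLA 06, as PAX6 was. VIM, at 13742, 4809, 8429.6 and 17086 TPM, was highest in CHLA 06 and set the sum of the list, which was 14632, 8259, 10097 and 17103 TPM. NES was at 25.6, 8.87, 27.6 and 7.86 TPM, and SOX2, a defining neural stem cell gene, at 0.119, 0.322, 4.03 and 0.0932 TPM.

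The 4 astrocyte markers summed to 58.0, 92.3, 209 and 0.294 TPM in CHLA 02, 04, 05 and 06. GFAP (23.9, 46.6, 151 and 0.0399 TPM) and AQP4 (34.1, 45.7, 43.2 and 0.125 TPM) were lowest in CHLA 06, while S100B was at 15.2 TPM in CHLA 05 and 0.0737 TPM or less in the others. The 4 fibroblast markers summed to 409, 3.17, 18.8 and 567 TPM. Most of this was COL1A1 (387, 1.72, 11.5 and 530 TPM). DCN (20.1, 0.993, 0 and 36.5 TPM) and LUM (0.636, 0, 0.155 and 1.28 TPM) were highest in CHLA 06, as COL1A1 was. COL1A2 alone differed, at 1.36, 0.452, 7.12 and 0.0129 TPM, highest in CHLA 05 and lowest in CHLA 06. The 4 epithelial markers summed to 82.1, 0.207, 12.8 and 109 TPM. KRT8 (55.1, 0.150, 0.0721 and 80.5 TPM) and KRT18 (24.5, 0.0427, 0.0734 and 26.4 TPM) were high in CHLA 02 and CHLA 06, as PAX2 was, whereas CDH1 was at 0, 0.0149, 12.4 and 0.0502 TPM and made up most of the CHLA 05 sum.

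The 4 neuron markers summed to 237, 268, 208 and 384 TPM in CHLA 02, 04, 05 and 06, nearly all of it TUBB3. The 4 oligodendrocyte markers summed to 32.4, 2.96, 46.4 and 23.1 TPM, from different members. MBP (31.9, 0, 0.267 and 23.1 TPM) made up nearly all of it in CHLA 02 and CHLA 06. In CHLA 05 it was OLIG1 (0.0657, 1.63, 31.9 and 0 TPM) and OLIG2 (0.473, 1.34, 14.2 and 0 TPM). The defining factor SOX10 was at 0.0408 TPM or less in every line. Of the 4 immune markers, CD68 alone reached 1 TPM in a line, with 6.36 TPM in CHLA 02 and 14.5 TPM in CHLA 06, and of the 3 endothelial markers VWF alone did, with 2.88 TPM in CHLA 04. Fewer cells of a type and less RNA per cell cannot be told apart in these bulk libraries, and the part of cell makeup in the PAX2 and PAX6 levels was not tested.

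Long terminal repeat (LTR) elements were measured in a separate table, scaled over LTR elements alone. Of the elements listed there, 16 lay within PAX genes, 10 in PAX5, 4 in PAX3 and 2 in PAX8, and none in PAX2 or PAX6. Of these, 2 had a read, namely LTR86C in PAX3 (1 read in CHLA 06 replicate 2) and MLT1D in PAX5 (1 read in CHLA 05). The libraries held 355302 to 511408 reads on LTR elements, so LTR transcription within PAX genes was not detectable beyond single reads at this depth.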

How the data were processed

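RNA of 4 AT/RT cell lines was sequenced in 6 libraries. Base calling used CASAVA 1.8.2 per the submitters' processing notes, which also name FastQC and Trimmomatic. The authors used CLCbio Genomics Workbench to map reads to GRCh38, and deposited TPM per Ensembl transcript and, from a second mapping, TPM per LTR element with 2 decimals. How the program counted strand and shared reads among transcripts is not given in the sources used here.

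Reads were recovered as whole multiples of 1 read's worth after multiplying TPM by length. Between 99.6% and 100% of values came out whole (tolerance 0.05 reads or the rounding), and recovery was tested on simulated data (100% exact). With 10265899 to 20520229 reads, 1 read on a transcript of 1 kb was worth 0.117 to 0.236 TPM. Technical replicates were averaged. With 1 biological sample per line, rules of size stood in for tests: detection at a TPM of 1, and a 4-fold difference on log2(TPM + 1) among genes at 1 TPM or more. Technical replicates were compared by exact binomial tests with Benjamini-Hochberg adjustment over all genes. Wilson intervals are at the 95% level.

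Named genes were the 9 PAX genes, the 5 nearest profiles of those at 5 TPM or more, their overlapping and nearest genes, and listed genes at 10 TPM or more with a 4-fold range. Markers of cell types were listed as well, and EBF1 and the gene counts for CHLA 02 were added after their values were seen. The PAX genes and all lists were chosen with earlier results of these data known. Of 100 PAX transcripts, 96 were found in GENCODE 44, 53 with the same exons. Python 3.11.15, pandas 2.3.3 and SciPy 1.17.1 were used. Proteins were not analysed here, and some listed genes that met the rule are not reported here.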

Additional observations from a re-analysis of the deposited data

How the results depend on the processing

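Of the counts over PAX genes and listed genes, 130 values under the alternatives were the same as the main ones within 1.5 times and 7 moved. Testing genes below 1 TPM as well could not change a 4-fold count, since such genes cannot reach 4-fold on log2(TPM + 1). With detection at a TPM of 0.5, CHLA 05 had 2 and CHLA 06 had 2 PAX genes detected. Quantile normalization over the libraries put PAX6 of CHLA 06 at 1.03 TPM, so CHLA 06 had 2, and counting a gene as detected at 10 reads in every library of a line, a rule chosen after seeing the data, gave CHLA 05 2. With a 2-fold threshold, CHLA 02 and CHLA 05 differed in 2 PAX genes and 43 listed genes passed. With the most abundant transcript alone in place of the sum, CHLA 02 and CHLA 06 differed in 0 PAX genes, and PAX6 was at 2.23, 5.77, 5.66 and 0.199 TPM in CHLA 02, 04, 05 and 06. Of single gene levels, 47 stayed within the replicate spread or counting interval and 9 moved. All 9 came from quantile normalization or from the most abundant transcript alone. Leaving out a technical replicate or taking their maximum could not move a level by this rule. The shift is then always smaller than the replicate SD, and lines with a single library do not change. Leaving out each technical replicate kept every count of PAX genes and gave 26 to 27 listed genes. It put PAX6 in CHLA 04 at 26.2 to 29.7 TPM and PAX2 in CHLA 06 at 45.1 to 47.5 TPM. Without CHLA 02, PAX2 and PAX6 kept a 4-fold range, and 26 listed genes had one. No paired analysis was possible because the lines were not tested against each other and a replicate number names a technical repeat of 1 line. Depth limits PAX6 in CHLA 06 and PAX2 in CHLA 04 and CHLA 05, which had 23, 9 and 3 reads.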
